A study of Homo sapiens with 7 samples.

Results

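Open chromatin was examined at 10 genes of the endoplasmic reticulum unfolded protein response in human neurons under mitochondrial stress. The genes were HSPA5, HSP90B1, XBP1, ATF6, ERN1, HERPUD1, DNAJB9, SEL1L, SYVN1 and EDEM1, chosen by name out of 19974 protein-coding genes on chromosomes 1 to 22 and X. Each gene was studied over its body and 50 kb on each side on hg38, which took in 55 of the 62509 merged accessible regions of the series.

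The assay was ATAC-seq, in which the transposase Tn5 cuts and tags DNA that is not wrapped tightly, so that sequenced fragments pile up over open regulatory DNA. The cells were LUHMES, an established human mesencephalic cell line of wild-type genotype, differentiated for 6 days and labelled as dopaminergic neurons of the mid brain. In the treated group, 4 libraries (differentiations 6, 7, 8 and 9) came from cells exposed for 8 h to 25 µM antimycin A and 10 µM oligomycin, of which the first blocks complex III of the respiratory chain and the second blocks the mitochondrial ATP synthase. In the vehicle group, 3 libraries (differentiations 6, 7 and 8) came from cells given DMSO. All libraries came from 1 cell line, so the spread between them is not that of donors. The numbers 6, 7 and 8 occur in both groups, and whether same-numbered libraries came from the same differentiation was not settled. The main tests treated the 7 libraries as unpaired.

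The unfolded protein response adjusts the folding capacity of the endoplasmic reticulum to its load of unfolded proteins. Its sensors in the reticulum membrane, among them IRE1α (encoded by ERN1) and ATF6, are held in check by the chaperone BiP (encoded by HSPA5), and when released they lead to the active transcription factors spliced XBP1 and cleaved ATF6. These factors bind short elements in promoters of genes for chaperones and for the removal of misfolded proteins, a process called endoplasmic reticulum-associated degradation.

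Matches to motifs linked to this response were found in the 250 bases before the start of transcription of 5 of the 10 genes. The RefSeq promoter sequences on GRCh38.p14 are shown for these 5 genes and for ERN1, which had no match and was the only gene of the 10 whose accessibility at the start did not overlap between the groups. Letters run 5′ to 3′ in the direction of transcription, and capitals mark matches to 4 motifs. The endoplasmic reticulum stress element (ERSE) was searched as CCAAT, 9 bases of any kind and CCACG. The related ERSE-II was searched as ATTGG, 1 base of any kind and CCACG. The other motifs in capitals are the palindrome CACGTG and the CARE element, TGATG, 1 base of any kind and AA, which is bound by ATF4 with C/EBP partners.
HSPA5, chr9:125241344-125241593, minus strand: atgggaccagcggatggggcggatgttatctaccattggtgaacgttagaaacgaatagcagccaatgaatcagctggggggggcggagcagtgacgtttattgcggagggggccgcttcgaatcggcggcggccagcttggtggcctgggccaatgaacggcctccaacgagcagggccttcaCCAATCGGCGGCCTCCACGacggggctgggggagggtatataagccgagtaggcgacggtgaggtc
HSP90B1, chr12:103930160-103930409, plus strand: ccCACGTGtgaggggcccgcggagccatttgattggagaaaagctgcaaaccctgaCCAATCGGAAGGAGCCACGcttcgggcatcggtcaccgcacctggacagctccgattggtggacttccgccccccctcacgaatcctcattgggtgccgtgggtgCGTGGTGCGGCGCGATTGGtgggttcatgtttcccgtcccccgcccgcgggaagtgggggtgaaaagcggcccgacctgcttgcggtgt
XBP1, chr22:28800570-28800819, minus strand: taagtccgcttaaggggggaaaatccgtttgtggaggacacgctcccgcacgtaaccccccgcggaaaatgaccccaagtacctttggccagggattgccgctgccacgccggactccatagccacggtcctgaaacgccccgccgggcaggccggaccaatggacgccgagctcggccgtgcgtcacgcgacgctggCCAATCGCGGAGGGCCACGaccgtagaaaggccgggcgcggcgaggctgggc
HERPUD1, chr16:56931892-56932141, plus strand: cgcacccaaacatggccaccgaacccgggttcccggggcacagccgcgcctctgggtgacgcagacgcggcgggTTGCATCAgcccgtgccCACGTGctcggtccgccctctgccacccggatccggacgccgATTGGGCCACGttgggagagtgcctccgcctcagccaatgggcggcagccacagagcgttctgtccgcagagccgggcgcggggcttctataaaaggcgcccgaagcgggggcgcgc
DNAJB9, chr7:108569624-108569873, plus strand: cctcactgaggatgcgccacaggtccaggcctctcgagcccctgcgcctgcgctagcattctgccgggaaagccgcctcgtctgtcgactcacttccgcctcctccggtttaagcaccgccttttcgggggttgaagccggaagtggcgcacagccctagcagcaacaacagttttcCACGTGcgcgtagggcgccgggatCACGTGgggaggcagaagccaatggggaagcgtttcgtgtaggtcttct
ERN1, chr17:64130145-64130394, minus strand: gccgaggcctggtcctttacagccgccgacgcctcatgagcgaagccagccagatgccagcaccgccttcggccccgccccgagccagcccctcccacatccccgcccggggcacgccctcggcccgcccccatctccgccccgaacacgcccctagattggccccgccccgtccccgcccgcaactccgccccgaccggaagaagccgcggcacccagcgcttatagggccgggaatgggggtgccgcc

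The ERSE was rare among promoters and present in 3 of the 10 genes. Of 13793 promoters searched on both strands, 17 held it in this exact form (0.123%). Copies that differ from it by a base were not counted. HSPA5 had it 66 to 48 bases before its start and XBP1 52 to 34 bases before. HSP90B1 had 2 copies, at 194 to 176 bases and, on the opposite strand, at 89 to 71 bases before its start. Of 47 other genes of the pathway with a promoter sequence, CALR, CRELD2 and ERO1B held an ERSE.

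ERSE-II was found in 11 promoters of the 13793 (0.0798%). HERPUD1 was the member with a match, at 117 to 107 bases before its start, and HYOU1 and SDF2L1 were the other pathway genes. HERPUD1 also held the CARE element on the opposite strand, at 176 to 169 bases, which 2.16% of promoters held. CACGTG, found in 7.87% of promoters, was present in HSP90B1, HERPUD1 and DNAJB9, and DNAJB9 had 2 copies, at 73 to 68 and at 49 to 44 bases before its start. The unfolded protein response element in the form TGACGTGG (0.696% of promoters) and the cyclic AMP response element TGACGTCA (2.41%) had no match in the 10 windows. The separate pieces CCAAT and CCACG, which overlap the ERSE matches, were each in 8 of the 10 windows, against 35.2% and 39.2% of all promoters. The 10 windows had a median GC content of 64.2% and a median of 22.5 CpG dinucleotides, beside 62.4% and 17 over all promoters. A match is a run of letters and does not show that a factor was bound.

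The 7 deposited lists of accessible regions differed greatly in length, and this governed how they could be compared. They held 53063 to 248900 regions in the treated libraries and 32828 to 159902 in the vehicle libraries after 29 to 54 peaks per library on other sequences were left out. The background recovered from the deposited fold enrichments, a measure of relative depth, was 0.816 to 5.99 fragments in treated and 0.492 to 1.43 in vehicle libraries. The strongest 32828 regions of each library by fold enrichment were therefore used, called the equal lists below. Where regions tied in fold enrichment at that limit, the wider ones were kept. In them, 60.5% to 65.0% of protein-coding genes had a region within 1000 bp of an end in treated libraries and 53.9% to 58.9% in vehicle libraries. Of 10 pan-neuronal markers, 9 had such a region in each treated library and 7, 9 and 9 in the vehicle libraries (RBFOX3 had none in any). Of 10 dopaminergic markers, 4 or 5 did, and TH, SLC18A2, DDC and LMX1B had none in any equal list, so the labelled identity is only partly seen in these lists. In the lists as deposited, 8, 10, 6 and 6 of the dopaminergic markers had a region in treated and 6, 4 and 7 in vehicle libraries. Of 10 markers of glia, mesenchyme, endothelium and microglia, 4 to 6 had a region in treated and 2 or 3 in vehicle libraries, while GFAP, AIF1, PECAM1 and SOX10 had none. This marker count was higher in every treated library than in any vehicle library in the equal lists. In the lists as deposited it was 7, 7, 4 and 6 in treated and 3, 2 and 7 in vehicle libraries, so the groups overlapped. Its part in the results below was not tested.

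All 10 genes had an accessible region at an end in every treated library. In the vehicle libraries 9, 10 and 9 genes did, in the order of differentiations 6, 7 and 8, and the gene without a region was ERN1 each time. The other 9 genes (90.0% of the 10) had the region in all 7 libraries, where 46.5% of all protein-coding genes and 55 of 66 other genes of the pathway (83.3%) did. For each gene and library the strongest of these regions lay at the start of transcription and not at the other end. Accessibility at a gene end was measured as the percentile of its strongest region among all 19974 genes of the same library, with genes lacking a region sharing the lowest rank.

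The genes kept a broadly stable order across libraries. SEL1L was highest, at a mean percentile of 99.3 ± 0.476 (SD, n = 7), followed by DNAJB9 at 98.1 ± 0.832, EDEM1 at 97.2 ± 2.37 and HSP90B1 at 93.6 ± 2.91. HERPUD1 (87.8 ± 5.58), HSPA5 (81.3 ± 6.77) and SYVN1 (69.8 ± 6.52) came next. XBP1 (55.6 ± 11.2), ATF6 (50.7 ± 6.54) and ERN1 (45.3 ± 16.8) were lowest. Other sensors and factors of the pathway ranged widely. EIF2AK3, which encodes the sensor PERK, was at 98.2 to 99.9 and CREB3L2 at 95.1 to 99.6 over the 7 libraries. CREB3L1 had means of 30.4 in treated and 32.9 in vehicle libraries, and ATF4 had 62.0 and 65.6. The median over the 12 listed sensors and factors was 73.9 in treated and 77.5 in vehicle libraries. Neighbours in the order were not always apart. HERPUD1 exceeded HSPA5 in 7 of 7 libraries and HSPA5 exceeded SYVN1 in 6, whereas SYVN1 exceeded XBP1 in 5, DNAJB9 exceeded EDEM1 in 3, XBP1 exceeded ATF6 in 4 and ATF6 exceeded ERN1 in 3.

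**Figure D1:**
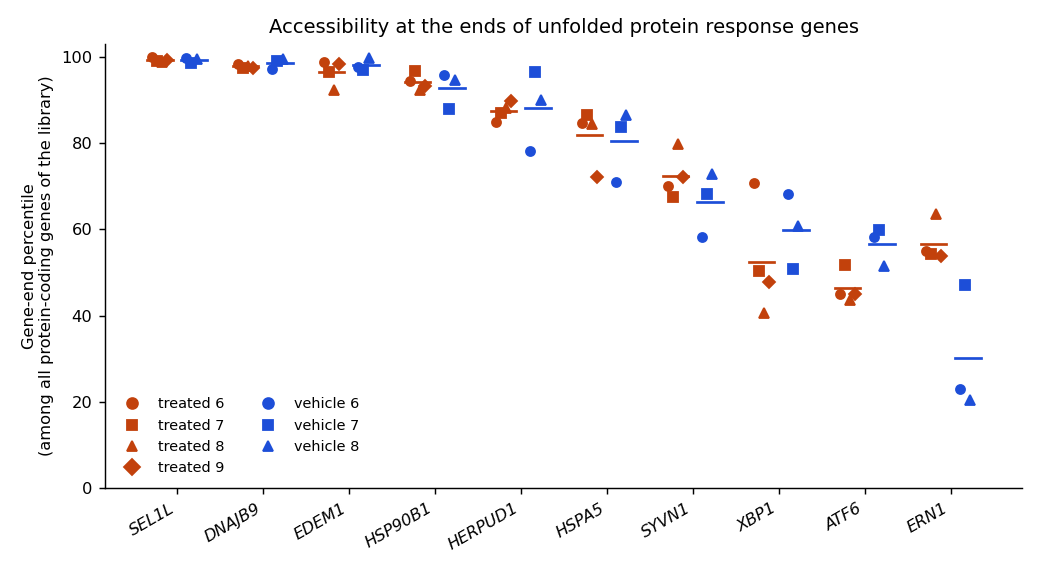
Gene-end percentile (vertical axis, 0 to 100 within each library) for each of the 10 genes, in order of their mean, with treated libraries in orange, vehicle libraries in blue, 1 symbol shape per differentiation number and a line at each group mean (4 treated, 3 vehicle). The groups overlap for 9 genes, and for ERN1 the treated libraries lie at 53.8 to 63.6 and the vehicle libraries at 20.5 to 47.0.

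Among the sensors and the transcription factor, ERN1 was the gene whose groups did not overlap. IRE1α, its product, is a kinase and endoribonuclease that splices XBP1 mRNA. ERN1 lies at chr17:64039142-64130144 on the minus strand. Its percentiles were 55.1, 54.4, 63.6 and 53.8 in treated 6, 7, 8 and 9 and 23.0, 47.0 and 20.5 in vehicle 6, 7 and 8. The lowest treated value exceeded the highest vehicle value, and the values of vehicle 6 and 8 are those given to genes without a region in the equal list.

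The difference for ERN1 was 26.5 percentile points (SE 7.66, 4 treated against 3 vehicle libraries). ERN1 met the requirement of a region in at least 3 libraries through the treated group alone, and 2 of its 3 vehicle values are the lowest rank, so its difference is given as a description. Over the 12649 genes tested together with limma, the unadjusted p was 0.00471 and the Benjamini-Hochberg adjusted p was 0.477, so the gene did not pass. Its adjusted p ranged from 0.401 to 0.825 over the alternatives in processing that kept a minimum number of libraries with a region. Without that filter it was 0.0663, in a setting where 6334 of 19974 genes passed. Groups did not overlap in the higher direction for 4.4% of all genes tested and in the lower direction for 4.15%, beside 1 and 0 of the 10 genes here. An unadjusted p under 0.05 was reached by 7.9% of all genes and an adjusted p under 0.05 by 0.0%. Of the 10 genes, 1 and 0 did.

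The counts behind the ERN1 region were small. Its summit held 48, 83, 13 and 16 fragments in treated 6 to 9 and 6 in vehicle 7 (95% Poisson interval 2.20 to 13.1, counting error only). Vehicle 8 had a region at the ERN1 start in its deposited list, with 19 fragments (11.4 to 29.7) at rank 35795, just beyond the 32828 regions kept. Vehicle 6 had none in either list. Divided by the recovered background of the library, the summits stood at 22.0, 13.8, 15.9 and 10.7 in treated libraries, 9.81 in vehicle 7 and 13.3 in vehicle 8. On that measure vehicle 8 fell inside the treated range. Of 16602 merged regions in all 7 deposited lists, 2 were higher in treated libraries without overlap on this measure and 765 were lower. The measure leaned lower in treated libraries across the genome, so the overlap here does not decide whether ERN1 differed. With the lists as deposited the percentiles were 55.1, 54.4, 63.6 and 53.8 against 20.6, 47.0 and 39.4, again without overlap, and the difference was 21.0 points. The region was 1386, 1527, 668 and 1139 bp wide in treated libraries and 178 bp in vehicle 7, and 999 bp in the deposited list of vehicle 8, inside the treated range. In vehicle 7 it did not reach the annotated start, and its summit lay 168 bases inside the gene, beside 38 to 71 bases in treated libraries. The vehicle 8 region covered the start, with its summit 201 bases before it.

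**Figure D2:**
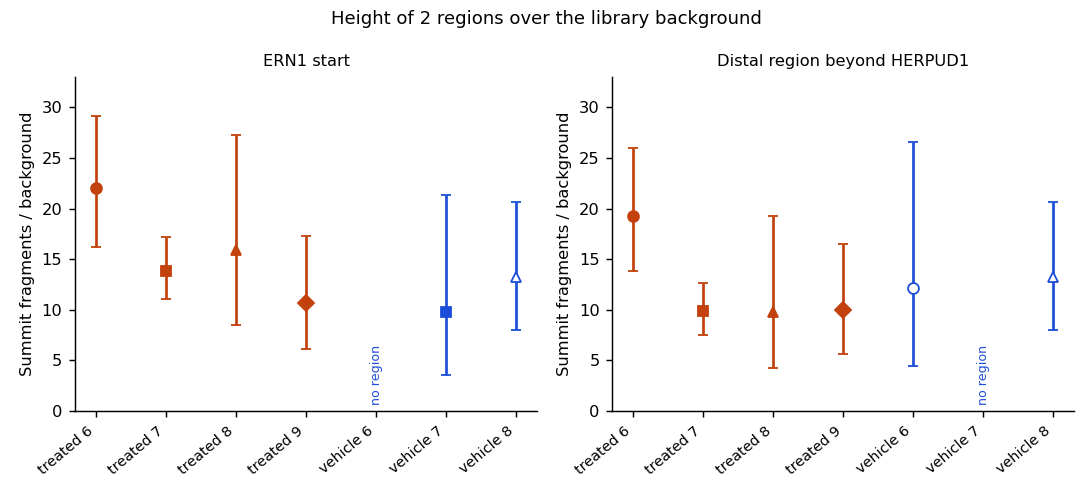
Fragments at the region's summit divided by the library's recovered background (vertical axis, from 0) at the ERN1 start and at the distal region beyond HERPUD1, for each library, with 95% Poisson intervals of the summit count. Filled symbols are regions in the equal lists, open symbols are regions only in the deposited lists, and the open vehicle 8 symbol at ERN1 (13.3) lies between the treated values.

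ATF6, a membrane-bound transcription factor that is cleaved in the Golgi, showed the opposite sign without separation. It lies at chr1:161766320-161964070 on the plus strand. Its percentiles were 44.9, 51.7, 43.6 and 45.0 in treated and 58.3, 59.7 and 51.5 in vehicle libraries. Treated 7 and vehicle 8 overlapped, and all other treated values were below all vehicle values. The difference was -10.2 points (exact permutation p = 0.0857, limma adjusted p = 0.648), which did not pass.

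XBP1, the factor whose mRNA IRE1α splices, had the largest spread over the 7 libraries after ERN1. It lies at chr22:28794560-28800569 on the minus strand. Percentiles were 70.7, 50.3, 40.5 and 47.9 in treated and 68.1, 50.7 and 60.8 in vehicle libraries. The highest and the lowest values both came from treated libraries. The difference of -7.52 points did not pass (exact permutation p = 0.400, limma adjusted p = 0.783). In treated 8 the region was 348 bp wide, rested on 7 fragments and did not reach the start.

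The chaperones showed no separation. HSPA5, at chr9:125234853-125241343 on the minus strand, encodes BiP, the main Hsp70 of the reticulum and the usual reporter of this response. Its percentiles were 84.6, 86.6, 84.4 and 72.1 in treated and 70.9, 83.8 and 86.5 in vehicle libraries, a difference of 1.55 points (exact permutation p = 0.629, limma adjusted p = 0.957). In each group 1 library was low and the others lay close together. HSP90B1, at chr12:103930410-103947926 on the plus strand, encodes the Hsp90 of the reticulum. It had 94.5, 96.7, 92.4 and 93.2 in treated and 95.9, 87.9 and 94.7 in vehicle libraries, a difference of 1.34 points (exact permutation p = 0.686). DNAJB9, at chr7:108569874-108574850 on the plus strand, encodes a J-domain co-chaperone of BiP. It stood at 97.5 to 98.2 in treated and 97.3 to 99.5 in vehicle libraries, and the difference was -0.79 points. Its start lies 106 bp from that of THAP5, so the region there belongs to both genes.

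The degradation genes were also alike in range between the groups. HERPUD1, SEL1L and SYVN1 encode parts of the HRD1 ubiquitin ligase complex, with SYVN1 the ligase itself, and EDEM1 encodes a lectin that selects misfolded glycoproteins. HERPUD1 (chr16:56932142-56944864, plus strand) had 84.9, 87.1, 88.1 and 89.7 in treated and 78.1, 96.5 and 90.0 in vehicle libraries. SEL1L (chr14:81471547-81533853, minus strand) stayed within 98.9 to 99.9 in treated and 98.6 to 99.8 in vehicle libraries. SYVN1 (chr11:65127279-65134519, minus strand) had 70.1, 67.5, 79.8 and 72.1 in treated and 58.3, 68.2 and 72.8 in vehicle libraries. EDEM1 (chr3:5187707-5219958, plus strand) had 92.4 to 98.8 in treated and 97.0 to 99.6 in vehicle libraries. The differences were -0.77 points for HERPUD1, 0.04 for SEL1L, 5.97 for SYVN1 and -1.64 for EDEM1, and none passed limma's adjusted threshold.

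Taking the 10 genes together, 5 had a positive and 5 a negative difference, with a median of -0.37 points. The sign turned when 1 library was left out for HERPUD1 (-5.81 to 3.38), HSPA5 (-3.20 to 4.82), HSP90B1 (-1.13 to 2.86) and SEL1L (-0.32 to 0.30). XBP1 ranged from -13.6 (without treated 6) to -3.39 (without vehicle 6) and SYVN1 from 1.91 (without vehicle 6) to 9.17 (without vehicle 8). Over all genes tested 55.9% of differences were positive and the median was 0.76 points. The highly ranked genes had little room above them on a percentile scale, so for SEL1L, DNAJB9 and EDEM1 the scale itself limits the differences that can appear.

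The regions at the starts ranged from narrow to broad among gene-end regions. By the median over libraries of its width percentile among all gene-end regions of a library, EDEM1 stood at 93.2, HERPUD1 at 91.6, HSP90B1 at 86.5, SYVN1 at 83.7 and DNAJB9 at 74.3. The lowest were SEL1L at 34.6 and ATF6 at 20.6. EDEM1 had the widest on average, at 2324, 3970, 1725 and 2298 bp in treated and 2468, 1627 and 2281 bp in vehicle libraries. SEL1L, the highest in rank, had some of the narrowest, at 1013, 1277, 968 and 874 bp in treated and 853, 826 and 1140 bp in vehicle libraries. The mean width was larger in treated libraries for each of the 9 genes with a region in all 7. The median width of all regions in the equal lists also ran higher in treated libraries (484 to 1450 bp) than in vehicle libraries (319 to 868 bp).

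Width was compared on the log2 scale relative to the library's median for gene-end regions. None of the 9 genes had groups that did not overlap, beside 2.79% of all 9283 genes tested that were wider and 3.6% that were narrower in treated libraries. The largest differences were 0.81 for SYVN1 (limma adjusted p = 0.698) and 0.56 for ATF6 (limma adjusted p = 0.694) on the log2 scale. The value for SYVN1 rested on vehicle 7, where the region was 185 bp wide against 1426 and 1875 bp in vehicle 6 and 8. SEL1L was at -0.39 and EDEM1 at -0.29, and neither passed. None of the 9283 genes passed limma's adjusted threshold, with 453 wider and 171 narrower at an unadjusted p under 0.05.

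**Figure D3:**
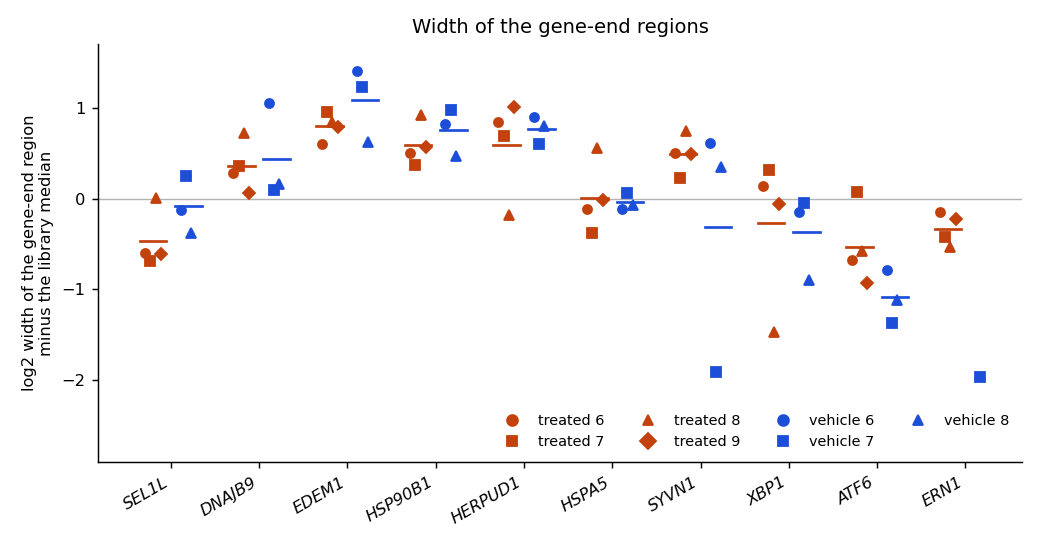
Log2 width of the region at each gene's start minus the library median of that value (vertical axis, 0 marks the median), with treated libraries in orange, vehicle libraries in blue and group means as lines where all libraries of the group have a region in the equal list. The groups overlap for all 9 genes with 7 values, and EDEM1 lies above the median in every library.

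Summits sat at a fixed place for some genes and moved for others. For SEL1L the summit lay 147 to 137 bases before the start in all 7 libraries. For DNAJB9 it lay 169 to 94 bases before the start, and for HSPA5 296 to 100 bases before. The ERSE of HSPA5 thus lay on the start side of every summit. For XBP1 the summits ran from 264 bases before to 109 bases after the start, with a median 39 bases before it, inside the ERSE at 52 to 34 bases. For HERPUD1 the median summit was 101 bases before the start, next to the ERSE-II. SYVN1 differed from the rest, with 6 of 7 summits 648 to 543 bases before the start and only treated 6 at 100 bases before. Over all genes with a known strand and a region at the start, the median summit per library lay between 40 bases before and 11 bases after the start.

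**Figure D4:**
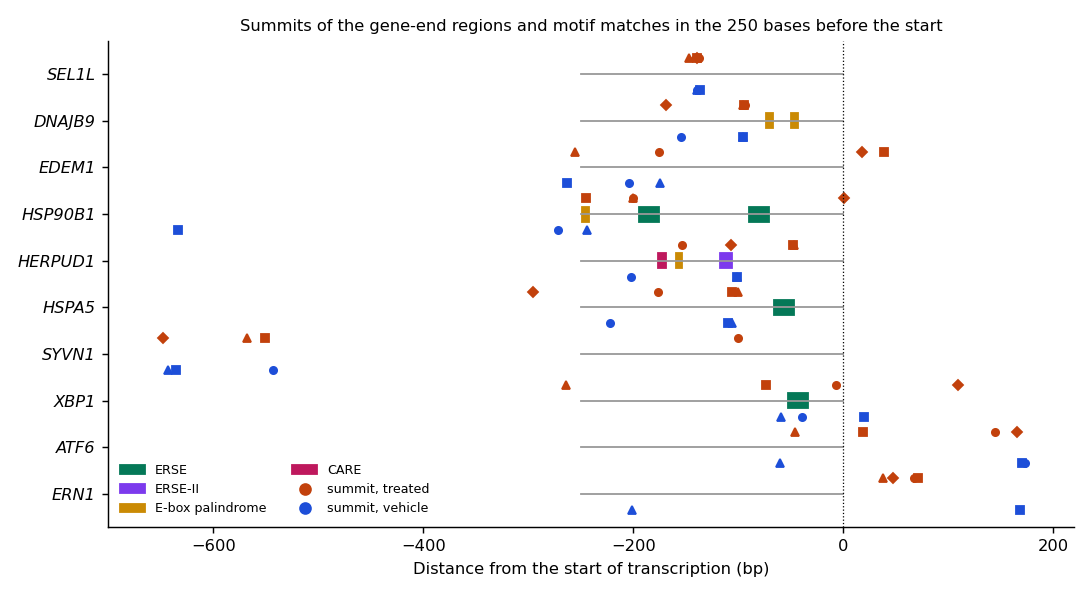
Summit positions of the region at each gene's start (treated above the line in orange, vehicle below in blue, 1 symbol shape per differentiation number; regions of the deposited lists) and motif matches as coloured boxes, against distance from the start of transcription in bp. The grey line marks the 250 bases searched, and the SYVN1 summits other than treated 6 lie outside it.

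Away from gene ends, few regions were shared by all 7 libraries, near the 10 genes as over the whole series. Of the 55 merged regions, 10 were the members' own starts, 21 lay at ends of other genes and 24 were distal, over 1000 bp from any protein-coding gene end. A distal region was present in all 7 libraries in 4 of the 24 cases (16.7%), and in a single library in 14. Over the whole series 12.5% of distal regions and 60.4% of gene-end regions were in all 7. HSPA5 and XBP1 had no distal region in any equal list.

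The 4 distal regions found everywhere belonged to HSP90B1, ATF6 and SEL1L. The HSP90B1 region (chr12:103956326-103957865) lay 8400 bp beyond the gene's end, inside UQCC6. An ATF6 region (chr1:162002710-162004295) lay 38640 bp beyond that gene's end, inside OLFML2B. The pair near SEL1L lay at chr14:81429077-81431142, inside STON2, and at chr14:81449110-81451222, between both genes and 20325 bp beyond the end of SEL1L. The second was the strongest of the 4, with summits of 137, 155, 25 and 36 fragments in treated and 21, 20 and 70 in vehicle libraries.

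The number of distal regions did not separate the groups at any of the 10 loci. The locus of SEL1L had most, with 5, 5, 3 and 4 in treated and 4, 2 and 4 in vehicle libraries. The locus of ATF6 had 1, 2, 4 and 1 against 2, 4 and 2, and that of EDEM1 had 1, 2, 1 and 1 against 1, 3 and 0. HERPUD1 came nearest to a difference, with 2, 1, 1 and 2 in treated and 0, 1 and 0 in vehicle libraries (exact permutation p = 0.171, adjusted p = 1 over 16905 loci). The smallest p that this permutation test allows is 0.0286, and no locus passed. The adjusted value therefore cannot show that the groups were alike. In each library a region near a gene end was counted as distal where that library's own narrower region lay outside the 1000 bp window, as for the vehicle 7 region of HERPUD1. Loci with groups that did not overlap made up 1.83% (more in treated) and 0.905% (fewer in treated) of all loci tested, and 0 of the 10 here. Summed over the 10 loci the counts were 12, 11, 12 and 10 in treated and 12, 14 and 8 in vehicle libraries. In the lists as deposited they were 71, 89, 23 and 20 against 17, 14 and 54. The 3 highest counts came from the 3 longest lists.

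In the equal lists 1 of the 55 regions was present in all 4 treated and no vehicle library, and none the other way round. Over the series 0.781% of 62509 regions had the first pattern and 0.37% the second. The region lay at chr16:56949884-56951896, 5020 bp beyond the end of HERPUD1 and 17742 bp from its start, outside any protein-coding gene. Its summits held 42, 59, 8 and 15 fragments in treated 6 to 9. In the deposited lists vehicle 6 also had it, with 6 fragments, and vehicle 8, with 19 fragments at rank 36488 past the 32828 regions kept, whereas vehicle 7 had none. In vehicle 6 its fold enrichment was 4.69, the same as that of the weakest regions kept, and it was left out because it was narrow (185 bp). With all tied regions kept, no region had the pattern. Relative to background the summits were 19.3, 9.84, 9.81 and 10.0 in treated libraries and 12.2 and 13.3 in vehicle 6 and 8. The vehicle values thus lay within the treated range, on a measure that leaned lower in treated libraries across the genome. The pattern was also absent in the lists as deposited, in lists of 16414 regions and with a −log10 q of at least 5.

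**Figure D5:**
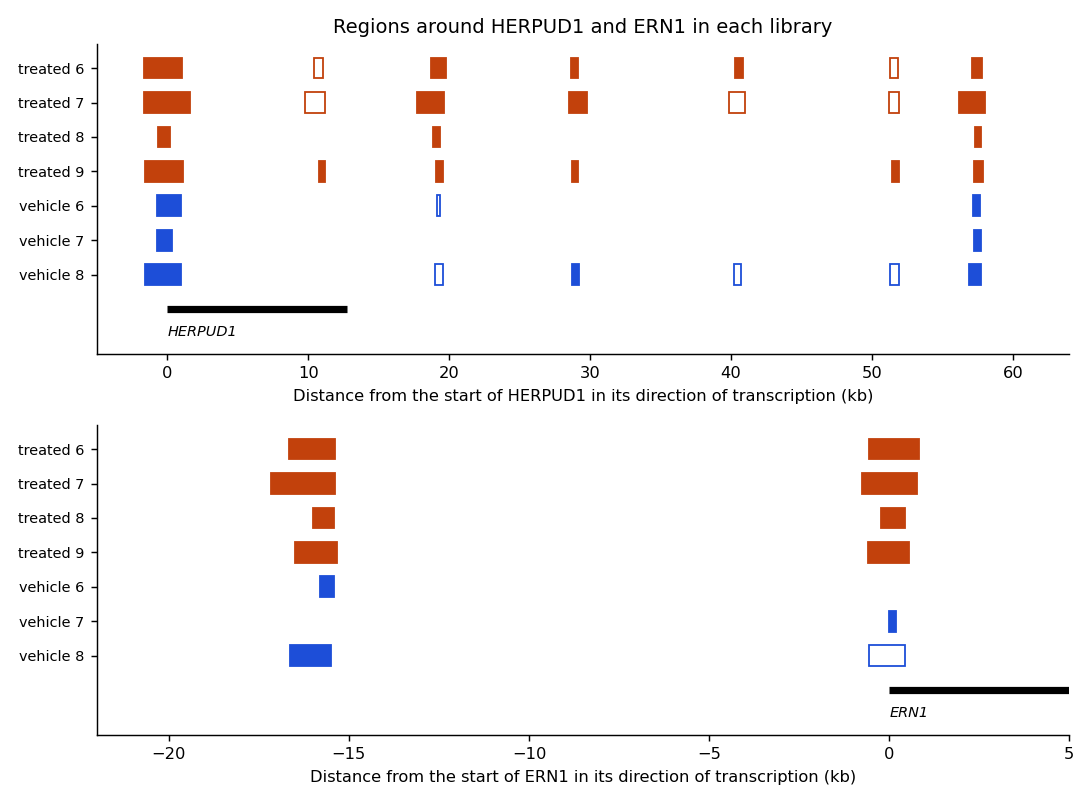
Regions in each library around HERPUD1 (upper panel) and ERN1 (lower panel) against distance from the gene's start in kb (part of the ERN1 locus is shown), with treated libraries in orange and vehicle libraries in blue. Filled boxes are in the equal lists, open boxes only in the deposited lists and the black bar is the gene; the region beyond the HERPUD1 end is filled in the 4 treated libraries and open in vehicle 6 and 8.

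A further 3 distal regions were singled out after their values had been seen. Inside EDEM1, a region at chr3:5201849-5203367, 14142 bp from the start, was in the deposited lists of all 4 treated libraries (45, 58, 7 and 9 fragments) and of no vehicle library. The share of all regions with that pattern in the deposited lists is not given. Treated 6 and 7 had the EDEM1 region in the equal lists. In treated 8 it tied in fold enrichment (4.41) with the weakest regions kept and was left out for its width of 250 bp. Near SEL1L, a region at chr14:81452258-81453666 was in the equal lists of treated 6, 7 and 9 and of no vehicle library, but vehicle 6 (5 fragments) and vehicle 8 (12 fragments) had it as deposited. The region of ATF6 at chr1:162009008-162012357, inside OLFML2B, leaned the other way. Its summits stood at 10.6, 7.51, 12.3 and 6.01 times background in treated and 34.6, 16.4 and 34.9 in vehicle libraries, without overlap, and it was in the equal lists of 2 treated and all 3 vehicle libraries. Of the 16602 merged regions in all 7 deposited lists, 4.61% (765) were lower in treated libraries without overlap on this measure and 2 were higher, so heights over background leaned lower in treated libraries across the genome. These values are a description with no test.

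The wider pathway gave a similar picture. Of 66 other genes, 60 could be tested, and none passed limma's adjusted threshold. The groups did not overlap for 1 gene in the higher and 2 in the lower direction, beside the 4.4% and 4.15% of all genes. TRIB3, a pseudokinase induced downstream of ATF4, had percentiles of 82.6, 67.1, 74.1 and 83.3 in treated and 47.6, 64.1 and 42.7 in vehicle libraries (difference 25.3, exact permutation p = 0.0286, limma adjusted p = 0.467). That permutation p is the smallest that the 35 assignments allow, and TRIB3 was named because its groups did not overlap. UBXN4, which recruits the segregase VCP to the reticulum, had 87.5, 80.7, 79.8 and 81.7 in treated and 89.6, 89.6 and 89.7 in vehicle libraries (exact permutation p = 0.0571). SEC61A1, the channel subunit of the translocon, had 65.1, 59.2, 67.3 and 47.9 against 73.5, 72.1 and 69.7 (exact permutation p = 0.0857). The smallest adjusted p over all 12649 genes was 0.169, and 605 genes were higher and 394 lower at an unadjusted p under 0.05.

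By role, none of the 12 sensors and transcription factors separated, and their median difference was -0.61 points. Among 18 chaperones and folding enzymes (17 tested) 0 separated, with a median of 1.5 points, and among 18 degradation genes (16 tested) UBXN4 alone did, with a median of 0.87. The 18 genes of translocation, export and feedback (15 tested) had TRIB3 and SEC61A1 and a median of -2.39. Over all 60 the median was -0.03 points, and 30 differences were positive. PDIA6, ERN2 and TRAF2 had no region at either annotated end in any equal list. As deposited, ERN2, a homologue of ERN1, had one in 2 treated libraries, TRAF2, an adaptor recruited by IRE1α, in 1 treated library and PDIA6, a disulfide isomerase, in none.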

How the data were processed

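Per the labels' protocols, ATAC-seq libraries were made from 4 treated and 3 vehicle samples. The submitters' processing notes name FastQC, Bowtie2, Picard and the build hg38. Peaks were called per library, not on pooled samples; settings of the caller and any Tn5 shift are not stated in the sources used here. The authors deposited, for each peak, the fold enrichment at its summit as a ratio, and −log10 p and −log10 q values, which serve to order regions within a library. Whether the settings changed region width or number was not tested.

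Peaks on chromosomes 1 to 22 and X were merged by position. Every fold lay on a grid of (summit fragments + 1) divided by (background + 1), 100% within a tolerance of 0.02, which gave both counts. Gene positions came from RefSeq on GRCh38.p14. The planned window of 1000 bp around the start became one around either gene end, because strand was given for 79.2% of genes, under the 80% required. Percentiles were tested for genes with an end region in at least 3 libraries, widths for those in all 7. The test was limma 3.58.1 in R 4.3.3 with Benjamini-Hochberg adjustment (threshold 0.05). On simulated percentiles it recovered 26% of genes shifted by 20 points and 72% of those shifted by 40 points. A gene that did not pass may thus still differ by amounts of this size. Single values had exact two-sided permutation tests over the 35 assignments of libraries in scipy 1.17.1.

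All 10 members, pathway genes whose groups did not overlap (at most 8 in each direction) and pathway genes without an end region are named. The 66 pathway genes and the 3 marker lists all matched the table. Members and lists were chosen with earlier results of these data known. Promoter sequences, 250 bases before the start, came from the RefSeq table on GRCh38.p14. Same-numbered treated and vehicle libraries did not deviate together, which does not settle whether they were paired by design. Alternatives varied list length, ordering, filters, windows, locus size and the libraries used; a window at the start of transcription only, and lists with all or none of the regions tied at the limit (1133 to 9516 per library), were added after seeing the data.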

Additional observations from a re-analysis of the deposited data

Results flagged for a closer look

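Within the 4 treated libraries, 7 values stood far from the other 3, by a gap larger than Dixon's test allows at the 95% level. Of 20 sets of percentiles and widths examined, 3 had such a value, where chance alone gives about 1 in 20. The gene-end percentile of HSPA5 was 72.1 in treated 9 and 84.4 to 86.6 in the others. The percentile of ERN1 was 63.6 in treated 8 and 53.8 to 55.1 in the others. The log2 width of the SEL1L start region relative to the library median was 0.0045 in treated 8 and -0.68 to -0.60 in the others.

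The other 4 values are counts of distal regions, from 10 sets examined, where the remaining libraries all had the same count. Any single library that differs then meets the criterion, so the rate of 1 in 20 does not apply to them. ERN1 had 1 in treated 8 and 0 in the others, and SYVN1 had 1 in treated 6 and 0 in the others. DNAJB9 had 0 in treated 7 and 1 in the others, and EDEM1 had 2 in treated 7 and 1 in the others. The ERN1 region is a 597 bp region near the end of TEX2, and the SYVN1 region is 802 bp wide and near the ends of VPS51 and TM7SF2. For DNAJB9, the counted region in treated 6, 8 and 9 is near the end of PNPLA8. In these cases the merged region of all libraries touched the 1000 bp window of the neighbouring gene.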

How the results depend on the processing

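No percentile or width of the 10 genes passed limma's adjusted threshold under any alternative run. ERN1 had groups that did not overlap under each of them, with a difference of 21.0 to 34.9 points. The share of all genes higher in treated without overlap ran from 2.78% (no filter on low values) to 19.6% (short lists only). The alternatives reuse the same libraries, so the repeated ERN1 result is a description and not separate support. The count of genes with groups that did not overlap was 1 as reported, 1 to 3 with a library left out and 4 with treated 8 and 9 against vehicle 6 and 7 only (ERN1 and SYVN1 higher, XBP1 and ATF6 lower), where 19.6% and 16.2% of all genes also separated. The groups of HERPUD1 and DNAJB9 separated, lower in treated, without vehicle 6 (7.93% of all genes did so), those of XBP1 without treated 6 (7.02%), and those of ATF6 without treated 7 (5.57%) or without vehicle 8 (8.56%). Regions in all libraries of 1 group and none of the other numbered 1 as reported, 0 with all regions tied at the limit kept (an alternative added after seeing the data) and 1 with all of them left out, 3 in lists of 16414 regions, 4 with a −log10 q of at least 5, and 1 to 2 with a library left out, the second being near SEL1L without treated 8 and at the ERN1 start without vehicle 7. The share of all regions with such a pattern is given only for the lists as reported, so the counts under the alternatives have no background beside them. The sum of differences in distal regions was -0.083 as reported and 22.4 in the lists as deposited. Without the filter on low values 6334 of 19974 genes passed limma, none of the 10 here, and 5919 of all genes have no end region in any equal list and hold only the lowest rank, which was 17.5 to 19.8 in treated and 20.5 to 23.0 in vehicle libraries. Over all genes, limma called 0 percentiles and 0 widths as reported. It called 2 and 1 with a window of 2500 bp, 1 and 0 with the summit inside the window, 1 and 6 without treated 8, 1 and 0 without treated 9, 1 and 0 without vehicle 6, 0 and 1 without vehicle 7, and 7 and 110 without vehicle 8. With the differentiation number as a replicate block, treated 9 was left out and ERN1 was at 27.5 points (limma adjusted p = 0.794). The difference without treated 9 and without a block was also 27.5 points (limma adjusted p = 0.729). With each number in both groups, a block cannot change a difference of means. The mean count of genes with an end region differed by 0.667 between the groups, and a block does not enter such a count. Same-numbered libraries had correlations of -0.068, -0.008 and -0.089 in their deviations, beside -0.152 to 0.260 for libraries with different numbers. These values do not settle whether same-numbered libraries were paired by design. Depth limits all values: the weakest region kept held 5 fragments in vehicle 7 and 41 in treated 7. Where a cause is not named, the cause was not tested.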
